A study of Mus musculus with 18 samples.

Results

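The Fgf response genes described here are 9 transcripts that many embryonic tissues produce when fibroblast growth factor signals reach the nucleus through Erk. They are the Sprouty genes Spry1, Spry2 and Spry4, the Spred genes Spred1 and Spred2, the phosphatase gene Dusp6, and the Ets factor genes Etv1, Etv4 and Etv5. They were named as a list and found by symbol among the 38355 genes counted in each library. All 9 were found, and all 9 passed the filter on low counts that left 16236 genes for testing.

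The samples were 18 RNA-sequencing libraries of dissected cortical tissue from C57BL/6 mouse embryos at E12.5. Of these, 5 came from Dmrt3-/-;Dmrt5-/- embryos, which lack both factors (double KO), 4 from Dmrt5-/- (Dmrt5 KO), 5 from Dmrt3-/- (Dmrt3 KO) and 4 from wild-type embryos (WT). Dmrt3 and Dmrt5 are transcription factors of cortical progenitors, and the current symbol of Dmrt5 is Dmrta2. The labels give neither the construction of the alleles nor the litter of each embryo. The p-values therefore measure only the spread between these libraries, which may be partly technical.

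Fgf ligands from the rostral midline of the telencephalon, among them Fgf8, Fgf17 and Fgf18, bind Fgf receptors on progenitors and activate the Ras-Erk kinase cascade. Etv1, Etv4 and Etv5 are Ets-domain transcription factors of the Pea3 type that act at the end of this cascade. Sprouty and Spred proteins restrain the cascade at the level of Ras and Raf, and Dusp6 removes phosphate from Erk, so these genes form a negative feedback loop. In the developing cortex, rostral Fgf signals are known for setting the size of frontal areas.

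Libraries held between 19602718 and 33072896 counts. The targeted transcripts followed the labels. Dmrt3 averaged 0.157 ± 0.18 CPM in the double KO and 0.308 ± 0.0654 CPM in Dmrt3 KO (SD, n = 5 each), against 56.9 ± 4.1 CPM in WT (SD, n = 4). Dmrta2 averaged 3.55 ± 1.34 CPM in the double KO and 10.7 ± 9.63 CPM in Dmrt5 KO, against 194 ± 29.7 CPM in WT. Its spread in Dmrt5 KO came from replicate 1, at 25.1 CPM beside 4.31, 6.94 and 6.57 CPM in the other 3 libraries (mean 5.94 CPM). Replicate 1 also held both Xist and Y-linked transcripts. CPM are the deposited counts scaled here to the size of each library. All 8 defining markers of embryonic cortex were detected in each genotype; their summed level ran over 1222 to 1499 CPM in the double KO, 1799 to 1897 in Dmrt5 KO, 2110 to 2435 in Dmrt3 KO and 2174 to 2510 in WT. The summed level of 12 mesenchyme markers varied widely inside every genotype, from 75.3 to 2228 CPM in the double KO, 467 to 1808 in Dmrt5 KO, 617 to 2878 in Dmrt3 KO and 825 to 2555 in WT. In dissected tissue, fewer cells of a type and less RNA per cell cannot be told apart.

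A few libraries stood apart. Double KO replicate 5 had the lowest mesenchyme score of all (0.92, the mean log2 CPM of the 12 markers), the lowest Fgf8 (1.6 CPM) and Fgf17 (8.58 CPM), and the highest length slope (1.214). The length slope is the slope of log2 CPM on log2 exonic length over genes, a measure of whether long transcripts take a larger share of a library. Double KO replicate 4 had the highest mesenchyme score of its genotype (6.4). WT replicate 2 had the lowest length slope (0.692), the highest Fgf17 (107.4 CPM) and, with Dmrt5 KO replicate 1, both Xist and Y-linked transcripts above 10 CPM, which fits neither sex alone. Values without these libraries are given for several members.

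Per kilobase of exon, the scale on which genes can be compared, Spry1 and Dusp6 had the highest mean levels of the 9 genes in each genotype. Spry1 (mm10 chr3:37639947-37644598, plus strand) averaged 21.3 ± 8.77 CPM per kb in the double KO and 18 ± 4.51 in WT (SD, n = 5 and n = 4). Dusp6 (chr10:99263231-99267489, plus strand) averaged 20.3 ± 8.76 CPM per kb in the double KO and 14.9 ± 4.52 in WT. Spry1 and Dusp6 differed by less than their spread between libraries.

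A middle group followed in WT, with Spred1 at 13.5 ± 2.18 CPM per kb (chr2:117121374-117182279, plus strand), Spred2 at 10.9 ± 2.59 (chr11:19924375-20024026, plus strand) and Spry2 at 9.19 ± 1.7 (chr14:105891947-105896819, minus strand). Etv5 stood at 7.4 ± 1.32 CPM per kb in WT (chr16:22381309-22439719, minus strand) and Etv4 at 6.53 ± 4.34 (chr11:101769742-101785371, minus strand). Neighbours in the order from Spred1 to Etv4 differed by less than the sum of their SDs. The lowest levels belonged to Spry4, with 1.86 ± 0.375 CPM per kb in WT (chr18:38586247-38601415, minus strand), and Etv1, with 0.979 ± 0.332 (chr12:38779380-38870484, plus strand). Every library held at least 118 counts of each gene, so counting error was small beside the spread between libraries. Of the exonic bases of Spry1, 24.4% overlap the gene model Gm42922 on the other strand, and the library kit does not mark strand, so reads from both cannot be told apart.

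None of the 9 genes was called in any of the 6 comparisons between genotypes. Calls needed an adjusted p below 0.05 in edgeR's quasi-likelihood test, with Benjamini-Hochberg adjustment over all 16236 genes. DESeq2 called 1 of the 9 in the double KO against WT (Etv5), 1 in the double KO against Dmrt3 KO (Spred2) and 0 in the other 4 comparisons. Of all genes, DESeq2 called 656 higher and 785 lower in the double KO against WT. In the double KO against Dmrt3 KO it called 505 higher and 471 lower. By edgeR 6.23% of all genes were called in the double KO against WT, 1.03% in Dmrt5 KO against WT and 0.0123% in Dmrt3 KO against WT. The shares were 0.333% in the double KO against Dmrt5 KO, 3.7% in the double KO against Dmrt3 KO and 0.142% in the interaction. The interaction asks, on the log2 scale, how far the double KO effect exceeds the 2 single KO effects added up. At an unadjusted p under 0.05, 2 of the 9 genes passed in the double KO against WT, 2 in Dmrt5 KO against WT, 0 in Dmrt3 KO against WT, 0 in the double KO against Dmrt5 KO, 5 in the double KO against Dmrt3 KO and 1 in the interaction. The shares of all genes that passed this looser rule were 17.7%, 11.3%, 7.16%, 4.71%, 17.4% and 9.22% in the same order. A p that misses the threshold does not show that the genotypes had the same level, so each gene is given below with its values and interval.

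**Figure D1:**
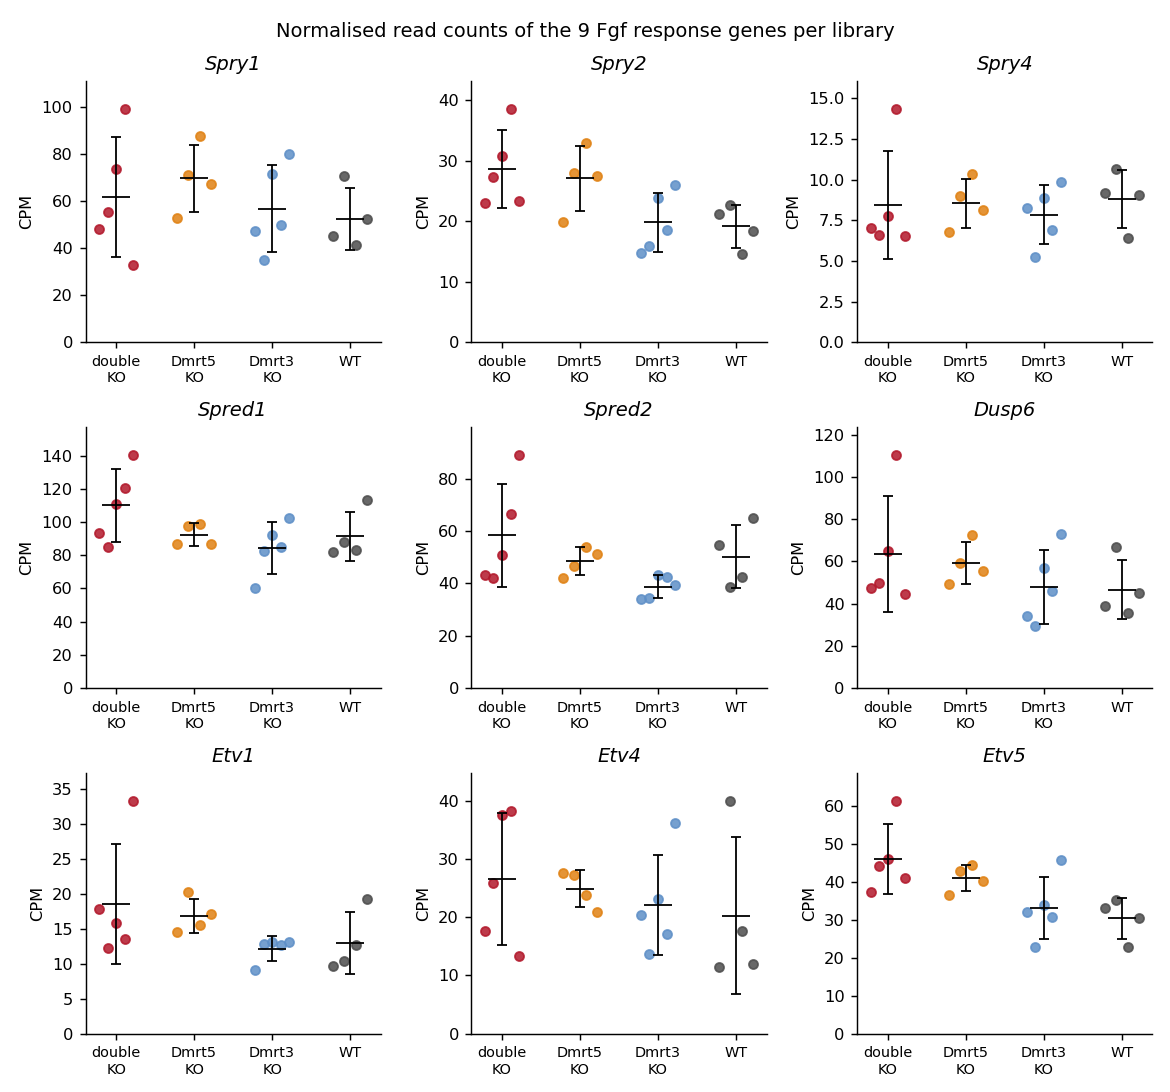
Normalised read counts (CPM, vertical axes from 0) of the 9 genes in each library, by genotype, with the double KO on the left and WT on the right; points are libraries in replicate order, horizontal marks the means and bars the SD. Etv5 and Spry2 have every double KO library above every WT library, as was so for 2.57% of all genes. Etv4 in WT runs from 11.5 to 40 CPM.

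Etv5 had the lowest p of the 9 genes in the double KO. Its level was 37.4, 44, 46, 61.3 and 40.9 CPM in the double KO libraries, against 33, 35.2, 22.7 and 30.5 CPM in the WT libraries. Every double KO library lay above every WT library, as was so for 2.57% of all genes. The log2 fold change was 0.60 (SE 0.18, 95% interval 0.21 to 0.98), and the gene ranked 1123 by p with an adjusted p of 0.0637 in edgeR's quasi-likelihood test. Dmrt5 KO libraries held 36.6, 42.9, 44.5 and 40.2 CPM of Etv5, also all above WT, as was so for 4.39% of all genes (log2 0.44, interval 0.03 to 0.84, edgeR adjusted p 0.391). Dmrt3 KO libraries held 32.1, 22.9, 33.9, 30.7 and 45.7 CPM and overlapped WT (log2 0.12, interval -0.26 to 0.51).

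The Etv5 value in the double KO lay close to the threshold, and its call depended on the setting. Over 20 other settings its log2 fold change stayed between 0.47 and 0.87 and its adjusted p between 0.0138 and 0.22, and 5 settings called it. Those were DESeq2, and as covariates embryo sex inferred from transcripts, the length slope, the mesenchyme score and, chosen after seeing the data, Fgf17. No fit that left out a single library called it.

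Spry2 showed the same order of genotypes. Its level was 23.1, 27.4, 30.7, 38.6 and 23.3 CPM in the double KO libraries, against 21.2, 22.6, 14.6 and 18.3 CPM in the WT libraries. The lowest double KO library stood just above the highest WT library. Of all genes, 2.57% had every double KO library above every WT library. The log2 fold change was 0.58 (SE 0.21, interval 0.14 to 1.01, edgeR adjusted p 0.123). In Dmrt5 KO the libraries held 19.9, 28.1, 33 and 27.5 CPM (log2 0.50, interval 0.04 to 0.95, edgeR adjusted p 0.384), and in Dmrt3 KO 14.8, 15.9, 23.9, 18.6 and 26 CPM (log2 0.05, interval -0.38 to 0.48). Both of these overlapped WT. With the mesenchyme score as a covariate, Spry2 and Etv5 were both called in the double KO against WT, each at log2 0.87 (edgeR adjusted p 0.0315 and 0.0138). Mesenchyme scores of double KO replicates 1, 2, 3 and 5 were below those of every WT library (at most 4.21, against at least 5.19).

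Dusp6, the Erk phosphatase gene, held 47.6, 50, 65, 110.6 and 44.8 CPM in the double KO libraries, against 39.1, 67.1, 35.5 and 45.1 CPM in the WT libraries. One library in each genotype was well above the rest, namely double KO replicate 4 and WT replicate 2, and the genotypes overlapped. The log2 fold change was 0.45 (interval -0.17 to 1.06, edgeR adjusted p 0.496). Dmrt5 KO libraries ran from 49.1 to 72.5 CPM (log2 0.34, interval -0.30 to 0.99) and Dmrt3 KO libraries from 29.2 to 72.9 CPM (log2 0.04, interval -0.58 to 0.65).

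Spry1 followed Dusp6 in the order of its libraries. It stood at 48.1, 55.2, 73.5, 99.2 and 32.9 CPM in the double KO, against 45.1, 70.8, 41.3 and 52.4 CPM in WT. The double KO libraries spanned a 3.02-fold range and enclosed all WT libraries. The log2 fold change was 0.24 (interval -0.36 to 0.84, edgeR adjusted p 0.799). In Dmrt5 KO the value was 0.41 (interval -0.22 to 1.05) and in Dmrt3 KO 0.12 (interval -0.49 to 0.72).

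Spry4 had values slightly below WT in all 3 knockouts, and none was called. The double KO libraries held 7.04, 6.58, 7.74, 14.35 and 6.51 CPM, against 9.2, 10.7, 6.39 and 9.06 CPM in the WT libraries. Apart from replicate 4, the double KO libraries lay at the lower end of the WT range. The log2 fold changes were -0.06 in the double KO (interval -0.58 to 0.45), -0.05 in Dmrt5 KO (interval -0.59 to 0.50) and -0.17 in Dmrt3 KO (interval -0.69 to 0.35).

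Etv4 had the highest coefficient of variation of the 9 genes in WT (66.4%) and in Dmrt3 KO (39.2%), but not in the double KO or Dmrt5 KO. It stood at 17.6, 25.8, 37.6, 38.2 and 13.3 CPM in the double KO libraries, against 11.5, 40, 17.6 and 11.9 CPM in the WT libraries. WT replicate 2 stood far above the rest of its genotype. The log2 fold change of the double KO was 0.39 with an interval of -0.41 to 1.19, wide enough to hold a fold of 0.754 as well as one of 2.28. Dmrt5 KO libraries lay between 20.9 and 27.6 CPM (log2 0.30, interval -0.54 to 1.14) and Dmrt3 KO libraries between 13.7 and 36.2 CPM (log2 0.13, interval -0.67 to 0.93). Without WT replicate 2 the Etv4 values were 0.96 in the double KO, 0.86 in Dmrt5 KO and 0.69 in Dmrt3 KO, and none was called (edgeR adjusted p 0.142, 0.277 and 0.251).

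Etv1 was spread by single libraries. The double KO libraries held 17.8, 12.3, 15.9, 13.5 and 33.4 CPM, against 9.64, 10.3, 12.7 and 19.3 CPM in the WT libraries. The log2 fold change was 0.51 (interval -0.05 to 1.07, edgeR adjusted p 0.343). Dmrt5 KO libraries ran from 14.6 to 20.2 CPM (log2 0.37, interval -0.21 to 0.96) and Dmrt3 KO libraries from 9.12 to 13.2 CPM (log2 -0.10, interval -0.65 to 0.46). The highest library of the double KO was replicate 5, and that of WT was replicate 4.

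The Spred genes, whose products keep Raf from being activated, gave larger double KO values against Dmrt3 KO than against WT, and neither was called. Spred2 stood at 43.1, 42.1, 50.9, 66.3 and 89.1 CPM in the double KO libraries, 34.2, 34.3, 43.2, 42.6 and 39.4 CPM in Dmrt3 KO and 54.8, 38.6, 42.5 and 64.9 CPM in WT. The double KO libraries overlapped both other genotypes. The double KO against Dmrt3 KO gave a log2 fold change of 0.59 (SE 0.19, interval 0.19 to 0.99, edgeR adjusted p 0.112), the double KO against WT 0.22 (interval -0.21 to 0.64) and Dmrt3 KO against WT -0.38 (interval -0.80 to 0.05). Among the 9 genes, Spred2 alone had an interaction interval above 0 (log2 0.64, interval 0.04 to 1.24), but the edgeR adjusted p was 0.529. With the length slope as a covariate the Spred2 interaction was 0.19 (edgeR adjusted p 0.989), the double KO against Dmrt3 KO 0.29 and Dmrt3 KO against WT -0.19. Without double KO replicate 5 the interaction was 0.44 and the double KO against WT 0.01.

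Spred1 gave 93.1, 85.2, 110.9, 120.7 and 140.5 CPM in the double KO, against 81.7, 87.7, 83.3 and 113.4 CPM in WT. Its log2 fold change was 0.27 against WT (interval -0.07 to 0.60) and 0.38 against Dmrt3 KO (interval 0.06 to 0.70, edgeR adjusted p 0.209). In Dmrt5 KO it was 0.01 from WT (interval -0.34 to 0.37), with libraries between 86.6 and 98.7 CPM.

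**Figure D2:**
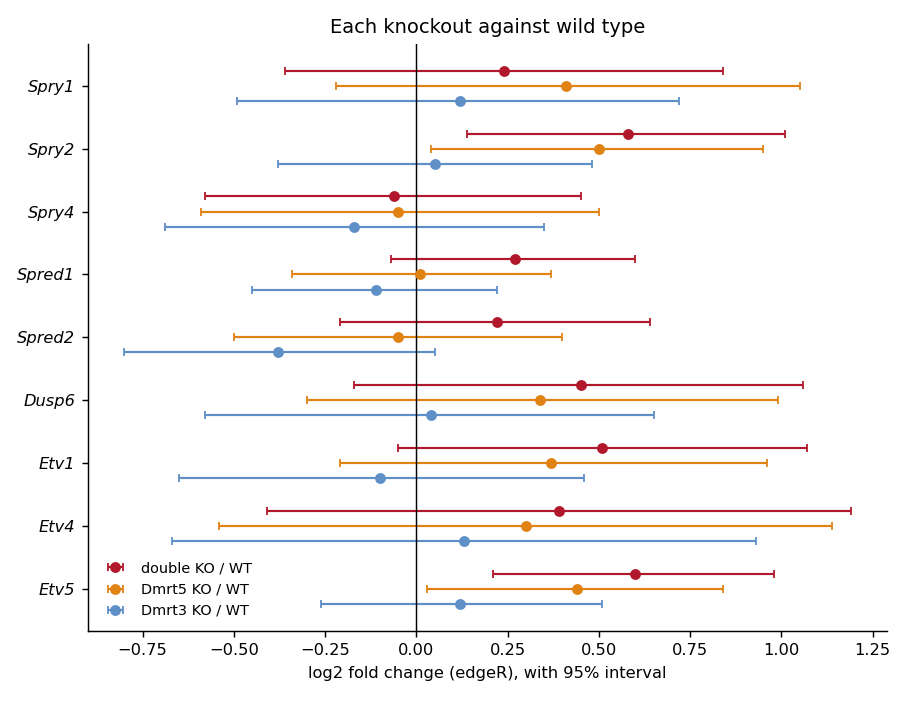
Log2 fold changes of the 9 genes in the double KO, Dmrt5 KO and Dmrt3 KO, each against WT, from edgeR (points) with 95% intervals (bars); the vertical line marks no difference. In the double KO and in Dmrt5 KO the intervals of Spry2 and Etv5 lie above 0 before adjustment, and no gene was called.

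As a list, 8 of the 9 genes had values above 0 in the double KO against WT, 7 in Dmrt5 KO and 5 in Dmrt3 KO. The 3 comparisons share the WT libraries, so these counts are not independent of each other, and the genes of the list vary together between libraries. The median log2 fold change of the list was 0.39 in the double KO, 0.34 in Dmrt5 KO and 0.04 in Dmrt3 KO, beside 0.01, -0.02 and 0 over all tested genes. Against Dmrt3 KO, all 9 double KO values were above 0, with a median of 0.41 beside 0.01 over all genes. The double KO against Dmrt5 KO gave a list median of 0.10 beside 0.01, and its largest value was 0.27, for Spred2. The median of the interaction was 0.07 beside -0.01.

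The size of these double KO values against WT rested in part on single libraries. Without double KO replicate 4 the list median was 0.22, with Spry1 at 0, Dusp6 at 0.15, Etv4 at 0.22 and Spry4 at -0.34 on the log2 scale. Without double KO replicate 5, Etv1 stood at 0.19 and Spred2 at 0.01, with a list median of 0.40. Without WT replicate 2, Etv4 stood at 0.96 and Dusp6 at 0.68, with a median of 0.42. Etv5 and Spry2 stood at 0.47 and 0.45 without double KO replicate 4, 0.64 and 0.64 without double KO replicate 5, and 0.68 and 0.67 without WT replicate 2. Without the library of highest mesenchyme score in each genotype the list median was 0.32, and without both libraries holding Xist and Y-linked transcripts it was 0.44. In none of these fits was a member called by edgeR. With the mesenchyme score as a covariate the list median in the double KO against WT was 0.77. In that fit Spry1 stood at 0.77, Dusp6 at 0.94, Etv4 at 0.84 and Spry4 at 0.36, while Etv1 stood at 0.13.

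Within a genotype, 6 of the 9 genes moved together from library to library. For each gene the mean log2 CPM of its genotype was subtracted from each library, and the 18 deviations were compared between genes. Pearson's r among Spry1, Spry2, Spry4, Dusp6, Etv4 and Etv5 ran from 0.55 to 0.94 over 15 pairs, with a median of 0.85. Among Spred1, Spred2 and Etv1 it ran from 0.65 to 0.74 over 3 pairs. Between these sets it ran from -0.47 to 0.45 over 18 pairs, with a median of 0.09. The gap between the sets rested largely on double KO replicate 5. Without that library the pairs between sets ran from -0.26 to 0.67 with a median of 0.46, while those of the 6 genes ran from 0.50 to 0.97 and those of the 3 genes from 0.36 to 0.66. Without double KO replicate 4 the median between sets was 0.01, and without WT replicate 2 it was 0.17. The sets were formed after these values were seen, so the ranges are a description.

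The closest pair was Spry1 and Dusp6, with r = 0.94 and Spearman's rho = 0.95 over 18 libraries. Each p from 100000 permutations within genotypes was 1e-05, the smallest they can give, and 0.00012 after Benjamini-Hochberg adjustment over the 36 pairs. Without double KO replicates 4 and 5, the libraries farthest from the median of Spry1, r was 0.95. Of all genes, 0.018% correlated with Spry1 as closely as Dusp6 did, Dusp6 included. Spry4 and Etv5 gave r = 0.91 and rho = 0.94 (permutation p 2e-05 and 1e-05, adjusted 0.00018 and 0.00012), and 0.87 without Dmrt3 KO replicate 2 and double KO replicate 4. Of all genes, Spry4 had the highest correlation with Etv5.

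**Figure D3:**
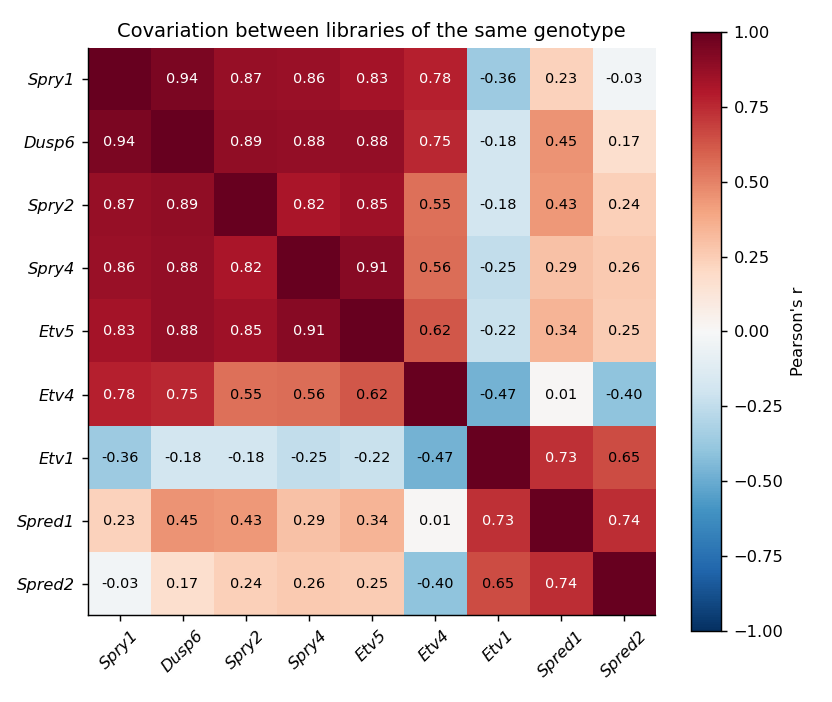
Pearson's r between the 9 genes over 18 libraries, computed on log2 CPM after subtracting the mean of each genotype; red is positive and blue negative. The block of Spry1, Dusp6, Spry2, Spry4, Etv5 and Etv4 holds values from 0.55 to 0.94, and that of Etv1, Spred1 and Spred2 values from 0.65 to 0.74; without double KO replicate 5 the median between the blocks is 0.46 in place of 0.09.

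Of the 15 pairs in the first set, 12 had an adjusted permutation p under 0.05. The other 3 pairs joined Etv4 to Spry2, Spry4 and Etv5 (r = 0.55, 0.56 and 0.62, adjusted permutation p 0.068, 0.068 and 0.055). In the second set, Spred1 with Spred2 (r = 0.74, rho = 0.78, adjusted permutation p 0.0041 and 0.0057) and Spred1 with Etv1 (r = 0.73, rho = 0.69, adjusted permutation p 0.0084 and 0.02) passed. Spred2 with Etv1 gave r = 0.65 but 0.19 without WT replicate 4 and double KO replicate 5, so that relation rests on those libraries. The correlations of the second set stood closer to the background than those of Spry1 with Dusp6 or Spry4 with Etv5. They did not stand closer than every pair of the first set. With Etv4, 17.3%, 16.4% and 12.2% of all genes correlated as closely as Spry2, Spry4 and Etv5 did. For Spry1 and Dusp6 with Etv4 these shares were 2.8% and 4.1%. Seen from Spry2, Spry4 and Etv5, the shares for Etv4 were 7%, 9.2% and 5.3%. Of all genes, 6.02% correlated with Spred1 as closely as Spred2 did, and 17.1% with Spred2 as closely as Spred1 did. The shares were 7% and 10.5% for Spred1 with Etv1, and 23.9% and 14.9% for Spred2 with Etv1.

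The same deviations can be read library by library, which describes the sets again and does not test them. All 6 genes of the first set were above their genotype mean in double KO replicate 4, Dmrt5 KO replicate 2, Dmrt3 KO replicates 3 and 5 and WT replicate 2. All 6 were below it in double KO replicates 1 and 5, Dmrt3 KO replicate 2 and WT replicate 3. In the remaining libraries the 6 did not all lie on the same side of the mean. In double KO replicate 5, where the 6 were below the mean, Spred1, Spred2 and Etv1 were all above it. In WT replicate 2 the 6 were above it and the other 3 below. In Dmrt3 KO replicates 3 and 5, by contrast, all 9 genes were above the mean.

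Levels over all 18 libraries put Spry1 beside Dusp6 and Spry2 beside Etv5, while other members had many genes of other kinds nearer to them. The measure was the root-mean-square difference of log2 CPM centred on each gene's mean, taken over 12798 other genes whose mean log2 CPM reached 1. Dusp6 was the nearest gene to Spry1 and Spry1 the nearest to Dusp6 (0.19). Etv5 was the nearest to Spry2 and Spry2 the nearest to Etv5 (0.15). After Spry1 and Spry2, the next gene for Dusp6 was Il17rd (0.21), whose product, also called Sef, restrains Fgf receptor signalling. Second for Etv5 was Rasa4 (0.18), a Ras GTPase-activating protein. The nearest gene to Spred2 was Ahcyl2 (0.06), and Spred1, its nearest among the 9, ranked 688. For Etv4 the nearest member was Spry1, at rank 19, and for Spry4 it was also Spry1, at rank 127. For Etv1 it was Spred1, at rank 577, and for Spred1 it was Spred2, at rank 926. This likeness was computed for all 9 genes after it was seen that none was called.

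Promoters of Spry1 with Dusp6 and of Spry2 with Etv5 are shown because each pair's levels were nearest to each other. RefSeq promoter windows (GRCm38.p6) matched 7 of the 9 genes with 9 start sites; Etv4 and Spry4 had no entry. The 150 bases before the start are given, 5′ to 3′ on the gene's strand, for Spry1 (chr3:37639797-37639946, plus), Dusp6 (chr10:99263081-99263230, plus), Spry2 (chr14:105896820-105896969, minus) and the first Etv5 start (chr16:22439571-22439720, minus). The Etv5 position given earlier comes from another annotation and reaches base 22439719 at its 5′ end. Nearly all of the printed Etv5 window therefore lies inside the gene by that annotation, and before the start only by RefSeq. Capitals mark GGAA or its reverse complement TTCC, the core that Ets factors bind.
Spry1: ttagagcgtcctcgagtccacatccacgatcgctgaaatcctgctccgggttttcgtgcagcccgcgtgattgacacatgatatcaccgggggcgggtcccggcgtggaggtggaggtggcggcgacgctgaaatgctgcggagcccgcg
Dusp6: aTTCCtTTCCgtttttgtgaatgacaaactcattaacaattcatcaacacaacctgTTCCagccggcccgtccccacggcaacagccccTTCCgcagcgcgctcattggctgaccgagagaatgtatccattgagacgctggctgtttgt
Spry2: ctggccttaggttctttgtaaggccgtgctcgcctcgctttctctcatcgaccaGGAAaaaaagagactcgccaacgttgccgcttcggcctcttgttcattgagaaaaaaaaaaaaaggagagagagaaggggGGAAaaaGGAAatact
Etv5: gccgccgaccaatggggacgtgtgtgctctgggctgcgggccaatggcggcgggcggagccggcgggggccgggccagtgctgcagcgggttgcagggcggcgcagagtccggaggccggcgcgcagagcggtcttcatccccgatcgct

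The core letters occur 4 times in the Dusp6 window, 3 times in that of Spry2 and 0 times in those of Spry1 and the first Etv5 start. The second Etv5 start holds them 1 time in 150 bases and 4 times in 250. In the full windows of 250 bases, GGAA on either strand is in 8 of the 9 start sites, and in 93.4% of 32851 mouse promoters. The longer Ets letters CCGGAA are in 0 of the 9 and in 12% of all promoters, and the Dmrt-like letters ACATTGT in 0 of the 9 and in 2.56%, on either strand. These letters are a description of the windows and not binding sites. The GC content of the printed windows was 64% for Spry1, 51.3% for Dusp6, 47.3% for Spry2 and 76% for Etv5. GGAA was added to the search after the longer letters had been counted.

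Transcripts of some Fgf ligands varied between libraries along with some genes of the first set. Fgf17 stood at 45.5, 50.9, 77.1, 76.1 and 8.58 CPM in the double KO libraries, against 24.7, 107.4, 44.8 and 20.5 CPM in the WT libraries. Its log2 fold change was 0.07 (interval -1.13 to 1.26), and that of Fgf8 was 0.03 (interval -1.15 to 1.21). Double KO replicates 3 and 4 were highest and replicate 5 lowest in both Fgf17 and Etv4, and WT replicate 2 was highest in both.

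Etv4 and Fgf17 correlated within genotypes with r = 0.89 and rho = 0.93 (permutation p 1e-05, the smallest possible, for r, 0.00036 after adjustment over 72 relations), and with r = 0.92 without the farthest 2 libraries. Of all genes, 0.123% correlated as closely with Fgf17. Etv4 with Fgf8 gave r = 0.88 and rho = 0.86 (adjusted permutation p 0.0012 and 0.0046). Spry1 with Fgf18 gave r = 0.89 and rho = 0.86 (adjusted permutation p 0.00036 and 0.0046), matched or passed by 0.018% of all genes. The level of Fgf18 was low, between 0.751 and 3.53 CPM. For Fgf18 the other members of the first set gave r from 0.71 to 0.85. Other pairs stood nearer to the background. Fgf8 and Fgf17 gave r from 0.45 to 0.63 with Spry2, Spry4 and Etv5, values that 15.1% to 27.7% of all genes reached. Genes outside the first set had negative r with both ligands. Etv1, Spred2 and Spred1 gave -0.61, -0.54 and -0.26 with Fgf17, and -0.6, -0.52 and -0.18 with Fgf8. Values as low were found for 18.8% to 43.6% of all genes. With Fgf18 the same genes gave -0.25, -0.07 and 0.23. Fgf15 gave r from 0.12 to 0.37 with the 5 genes of the set other than Etv4, reached by 34% to 42.5% of all genes.

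Marker scores of other cell types moved with the same genes. Spry4 correlated with the endothelium score (r = 0.85, rho = 0.73, adjusted permutation p 0.0065 and 0.023; 1.92% of all genes as high) and with the mesenchyme score (r = 0.75, rho = 0.68, adjusted permutation p 0.0065 and 0.023). For the 6 genes of the first set, r with the mesenchyme score lay between 0.47 and 0.76 and with the medial ganglionic eminence score between -0.74 and -0.29. All 10 endothelium markers were detected, with sums of 164 to 388 CPM in the double KO, 244 to 370 in Dmrt5 KO, 233 to 381 in Dmrt3 KO and 287 to 384 in WT. All 4 markers of the medial ganglionic eminence were detected too, with sums of 260 to 696 CPM in the double KO, 268 to 415 in Dmrt5 KO, 78.3 to 386 in Dmrt3 KO and 88.7 to 187 in WT. With the mesenchyme score as a covariate the list had 2 called genes, as given above; the part of endothelium and ganglionic eminence was not tested.

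Spred2 moved with the length slope. It correlated with it at r = 0.92 and rho = 0.88 (adjusted permutation p 0.00048 and 0.0046), and at 0.85 without the farthest 2 libraries. Of all genes, 4.52% had as high an r. Etv1 gave r = 0.69 and Spred1 r = 0.60, values reached by 24.1% and 29.4% of all genes. In the first set, Etv4 gave r = -0.65. Spred2 ran against Fgf15, with r = -0.77 and rho = -0.67 (adjusted permutation p 0.0065 and 0.032). In a fit with the length slope as a covariate no member other than Etv5 was called in any comparison.

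**Figure D4:**
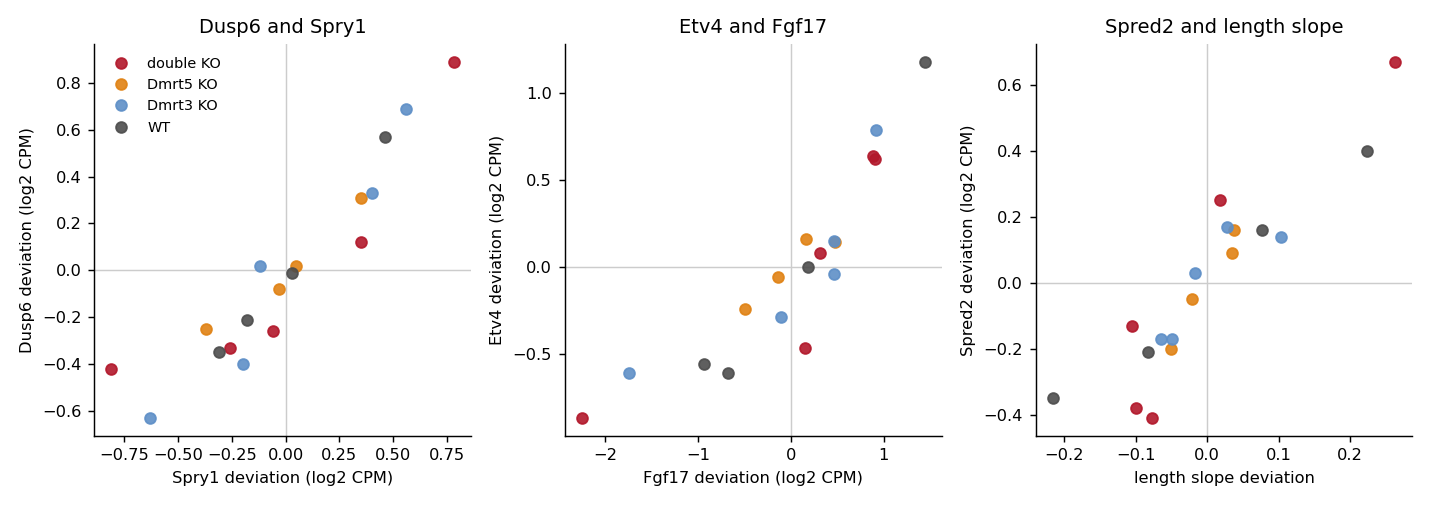
Deviations of 18 libraries from their genotype means, in log2 CPM for genes and in slope units for the length slope; points are libraries coloured by genotype. Dusp6 follows Spry1 (r = 0.94), Etv4 follows Fgf17 (r = 0.89) and Spred2 follows the length slope (r = 0.92).

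Upstream of the 9 genes, some Fgf ligands rose in the double KO. Of 18 Fgf ligand genes listed, 7 were tested. Against WT 3 rose, 0 fell and 4 were not called, beside 6.23% of all genes called in either direction. The list median was 0.73 beside 0.01 over all genes. Fgf3, a ligand made near the rostral midline, held 15.1, 15.5, 10.3, 8.82 and 7.96 CPM in the double KO libraries, against 5.11, 6.46, 5.16 and 3.15 CPM in the WT libraries. All double KO libraries were above all WT libraries (log2 1.22, SE 0.25, edgeR adjusted p 0.00534), as was so for 2.57% of all genes. Fgf15, expressed in forebrain progenitors, averaged 106 ± 27.2 CPM in the double KO and 47.6 ± 21 CPM in WT (SD, n = 5 and n = 4; log2 1.16, SE 0.26, edgeR adjusted p 0.0109). Fgf9 averaged 4.16 ± 1.39 and 2.32 ± 0.391 CPM in the double KO and in WT (log2 0.85, edgeR adjusted p 0.0361). The calls of Fgf3 and Fgf15 were kept without any single library, while that of Fgf9 was kept in 2 of 9 such fits.

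Among the 5 Fgf receptor genes, 0 rose and 1 fell in the double KO against WT, while 6.23% of all genes were called in either direction. The list median was -0.02 beside 0.01 over all genes. Fgfr3 held 53.5, 74.8, 63.4, 45.6 and 153 CPM in the double KO libraries, against 259, 95.9, 164 and 341 CPM in the WT libraries (log2 -1.46, SE 0.38, edgeR adjusted p 0.0271). Double KO replicate 5 and WT replicate 2 made the ranges overlap. Without WT replicate 1 or 4, or double KO replicate 1, 2 or 3, Fgfr3 was not called. Fgfr1 (log2 -0.02, interval -0.36 to 0.33) and Fgfr2 (log2 -0.20, interval -0.53 to 0.14) were not called.

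Downstream of the receptors, the 23 tested genes of the Ras-Erk core had a list median of 0.06 in the double KO against WT. Beside 6.23% of all genes called in either direction, 1 of the 23 rose and 0 fell. It was Frs3, an adaptor that links Fgf receptors to Ras (24.4 ± 5.1 CPM in the double KO, 15.4 ± 2.36 in WT; log2 0.67, edgeR adjusted p 0.0186). Its call was lost without WT replicate 4, double KO replicate 1 or double KO replicate 2. Of 15 other tested Ets genes, 14 had values below 0 in the double KO against WT, with a list median of -0.21 beside 0.01 over all genes. By edgeR 0 of the 15 were called, and 2 had an unadjusted p under 0.05. Over the other settings, DESeq2 included, 0 to 3 were called. In Dmrt5 KO and Dmrt3 KO against the same WT libraries the list medians were -0.22 and -0.24, with 13 and 10 of the 15 below 0. Against Dmrt3 KO the double KO median was -0.1, with 8 of the 15 below 0. Of 14 tested immediate early genes, 0 rose and 1 fell, namely Egr1 (3.01 ± 1.6 CPM in the double KO, 6.68 ± 1.63 in WT; log2 -1.15, edgeR adjusted p 0.0458), called in 2 of 9 fits that left out a library.

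Most other feedback genes had values below 0, while those called did not share 1 direction. Of 15 tested, 1 rose and 2 fell in the double KO against WT, beside 6.23% of all genes called in either direction. Values were below 0 for 12 of the 15 and above 0 for 3, with a list median of -0.29 beside 0.01 over all genes. In Dmrt5 KO and in Dmrt3 KO against WT, 13 of the 15 were below 0. Flrt3, whose product binds Fgf receptors, averaged 39.5 ± 7.1 CPM in the double KO and 77.6 ± 15.8 CPM in WT (log2 -0.97, SE 0.16, edgeR adjusted p 0.00119). In Dmrt5 KO it averaged 37.1 ± 1.01 CPM, against the same WT level (log2 -1.06, SE 0.17, edgeR adjusted p 0.00566). Flrt3 was called in all 20 other settings run for the double KO and all 19 for Dmrt5 KO. Dusp14, another dual-specificity phosphatase, averaged 9.28 ± 1.86 CPM in the double KO, 17.4 ± 1.6 in Dmrt3 KO and 16.6 ± 2.97 in WT (double KO against WT log2 -0.84, edgeR adjusted p 0.00641). Spred3, the third Spred gene, averaged 60.1 ± 12.7 CPM in the double KO and 40.7 ± 7.66 CPM in WT (log2 0.56, edgeR adjusted p 0.0409), and was called in 3 of 9 fits that left out a library.

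Of 8 tested regulators of rostral and ventral patterning, 4 rose in the double KO against WT and 0 fell, with a list median of 0.46. Over the other settings 2 to 5 were called, and of all 16236 genes 393 rose. Markers of the medial ganglionic eminence, where some of these regulators are also expressed, summed to 260 to 696 CPM in the double KO and 88.7 to 187 CPM in WT, and their part in these values was not tested. The 4 were Six3 (log2 1.49, edgeR adjusted p 8.59e-07), Zic1 (log2 0.75, 0.004), the ligand gene Shh (log2 1.95, 0.00979) and Sp8 (log2 0.77, 0.0335), which encodes a factor that acts together with Fgf8 at the rostral midline. Six3 also rose in Dmrt5 KO against WT (log2 1.01, edgeR adjusted p 0.000863). The call of Sp8 was lost without WT replicate 1, 3 or 4 or double KO replicate 1 or 5. Of 14 other receptor tyrosine kinase genes, 0 rose and 1 fell in the double KO against WT, beside 6.23% of all genes called in either direction. Values were below 0 for 12 of the 14, with a list median of -0.53 beside 0.01 over all genes. The gene that fell was Kit (log2 -1.18, edgeR adjusted p 0.0111), and its call was lost without WT replicate 4. For these 14 genes the median was -0.36 in Dmrt5 KO and -0.3 in Dmrt3 KO against the same WT libraries, with 12 and 14 below 0. Against Dmrt3 KO the double KO median was -0.19, with 10 of the 14 below 0.

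Against Dmrt3 KO, the double KO had 1 Fgf ligand gene higher (Fgf3, log2 0.84, edgeR adjusted p 0.0497), 1 other feedback gene higher (Spred3, log2 0.56, 0.0404), 1 lower (Dusp14, log2 -0.90, 0.00351) and 4 of 8 rostral and ventral regulators higher. Fgf3 was kept in 2 of 10 fits that left out a library, Spred3 in 2 of 10 and Dusp14 in 10 of 10. Of the 4 regulators, Six3, Sp8 and Zic1 were called in 10 of 10 such fits and Shh in 5 of 10. Erbb4, a receptor of neuregulins, was higher as well (log2 1.35, edgeR adjusted p 0.0494), in 2 of 10 such fits. Of all genes, 3.7% were called in the double KO against Dmrt3 KO. In Dmrt5 KO against WT, where Flrt3 and Six3 were called, Fgf3 (log2 0.86, interval 0.32 to 1.4) and Fgf15 (log2 0.77, interval 0.20 to 1.34) had edgeR adjusted p of 0.144 and 0.248. In Dmrt3 KO against WT their values were 0.38 and 0.37 (intervals -0.13 to 0.90 and -0.17 to 0.91).

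Some of these calls against WT also ended under other settings. When only the double KO and WT libraries entered the fit, Flrt3, Six3, Zic1 and Shh were still called, while Fgf3, Fgf15, Fgf9, Fgfr3, Frs3, Dusp14, Spred3, Egr1, Kit and Sp8 were not (highest adjusted p over all settings 0.0691 for Fgf3 and 0.0992 for Fgf15). With the mesenchyme score as a covariate, Fgf9, Frs3, Dusp14, Spred3, Egr1, Shh and Sp8 were not called.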

How the data were processed

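Whole cortical tissue of 18 E12.5 embryos was profiled by RNA sequencing; per the labels' protocols, RNA came from RNeasy columns and the TruSeq RNA library kit was used, which does not mark strand. The deposited files hold raw counts per Ensembl gene, which the authors had not normalised. The build was mm10, and the tools included featureCounts 1.4.6-p1 and STAR 2.3.0e, per the submitters' processing notes; annotation release and strand setting were not given. Symbols came from GENCODE M21 by identifier (36602 of 38355 genes; the unmatched held 0.397% of counts). The 5 summary entries per file were 0 and were left out.

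Genes were filtered with filterByExpr, and counts were scaled by TMM and fitted with edgeR 4.0.16 (R 4.3.3) over all 18 libraries with a mean per genotype. Intervals are 95% intervals of the log2 fold change; the tests were two-sided, with Benjamini-Hochberg adjustment across the 16236 genes. Other settings were DESeq2 1.42.0 (its test and its size factors), no filter, only the genotypes compared, a replicate block, covariates (mesenchyme score, length slope, sex) and each library left out. Chosen after seeing the data were Fgf17 as a covariate, the fit without the library of highest mesenchyme score in each genotype, and the fit without the libraries holding both Xist and Y-linked transcripts. The fit was tested on simulated data. Embryo sex was inferred here, as female where the CPM of Xist exceeded the summed CPM of Y-linked genes. Of the libraries holding both, WT replicate 2 counted as female and Dmrt5 KO replicate 1 as male. Correlations used deviations of log2 CPM (prior count 2) from genotype means, with permutations within genotypes (numpy 2.4.6, scipy 1.17.1). The lowest count of a member in a library was 118, so the spread between libraries weighed more than counting error.

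The members and lists were chosen with earlier results of these data known. By rule, the text names all 9 members, up to 4 called genes per list and comparison with the lowest adjusted p, and Fgf8, Fgf15, Fgf17, Fgf18 and Fgfr1 to Fgfr3; genes of similar pattern were meant for called members only. The promoter windows to print were chosen after the values were seen. Protein sequences are not used here.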

Additional observations from a re-analysis of the deposited data

Results flagged for a closer look

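Among 36 groups, each of 1 gene in 1 genotype, 3 held a library far from the others by Dixon's test; chance gives about 1 in 20 groups. Spry4 stood at 14.35 CPM in double KO replicate 4, while the other double KO libraries lay between 6.51 and 7.74 CPM, and the gap took 0.844 of the range. That library also had the highest mesenchyme score of its genotype (6.4) and the highest Spry1, Dusp6 and Etv5 levels. Etv1 stood at 33.39 CPM in double KO replicate 5, while the others lay between 12.3 and 17.8 CPM (0.736 of the range); this library had the highest length slope of all 18 (1.214). Etv1 stood at 9.116 CPM in Dmrt3 KO replicate 1, while the others lay between 12.8 and 13.2 CPM (0.9 of the range). The part of the marker scores and of the length slope in these values was not tested.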

How the results depend on the processing

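Of the 9 members, 0 were called under the settings reported. In the double KO against WT, other settings called 1 with DESeq2 (Etv5, log2 0.61, adjusted p 0.0213), 2 with the mesenchyme score as a covariate (Spry2 and Etv5), 1 with the length slope (Etv5, log2 0.60, 0.0302), 1 with embryo sex (Etv5, log2 0.61, 0.0381) and 1 with Fgf17 as a covariate (Etv5, log2 0.58, 0.0258). In the double KO against Dmrt3 KO they called 1 with DESeq2 (Spred2, log2 0.60, adjusted p 0.0499), 2 with the mesenchyme score (Spry2, log2 0.82, 0.0428; Etv5, log2 0.75, 0.0346) and 2 with Fgf17 (Spred2, log2 0.55, 0.0428; Etv5, log2 0.49, 0.0474). The cause was not tested. Leaving out each library in turn gave 0 called members in every comparison, as did the fits without the libraries of highest mesenchyme score and without those holding both Xist and Y-linked transcripts. No called value changed sign; of 1152 values of members under other settings, 120 uncalled ones changed sign, with reported sizes of at most 0.29.

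The replicate numbers were not taken to pair the samples: deviations of same-numbered libraries correlated at -0.36 to 0.70 over 24 pairs (median 0.24, against -0.14 for other numbers), with 15 over 0.1 where all 24 were needed, and 4 of 18 libraries were closest to their own number. The fit with the replicate block called 0 members in each comparison. Over all genes, the double KO against WT gave 393 higher and 619 lower, but 131 and 237 with only those genotypes in the fit, 129 and 302 with the mesenchyme score, 1588 and 1582 with the length slope, 714 and 913 with Fgf17, and 734 and 1272 without double KO replicate 4. Dmrt5 KO against WT gave 55 and 112, but 210 and 228 with DESeq2 and 184 and 196 with the block. For the double KO against Dmrt3 KO, the reported fit had 282 genes higher and 318 lower. Under DESeq2 these counts were 505 and 471. Adding Fgf17 to the fit raised them to 775 and 745, whereas adjusting for mesenchyme lowered them to 92 and 199. Depth gave each member at least 118 counts in each library, and Etv5, at a 1.51-fold difference between the double KO and WT, was not called.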
